A study of Mus musculus with 2 samples.

Results

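Nuclear genes that encode subunits of the mitochondrial respiratory chain were compared between cultured mouse neural retinal progenitor cells (mNRPCs) and mouse retina. Genes were chosen by symbol alone: the Ndufa, Ndufb, Ndufc, Ndufs and Ndufv genes of complex I, Sdha to Sdhd of complex II, the Uqcr genes of complex III, Cox4 to Cox8 of complex IV and the Atp5 genes of complex V. The rule found 84 of the 31253 genes in the expression table, and 80 of them reached 1 FPKM in a library and were compared. FPKM scales the fragments of a transcript to its length and to the size of the library, so that levels of different genes can be set side by side per length. The symbols follow RefSeq, in which Atp5a1, for instance, has the synonym Atp5f1a and Atp5g1 the synonym Atp5mc1.

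The mNRPC library was made from cells of C57BL/6 mice at passage 24. By the study's methods such cells were isolated from adult neural retina and kept on Matrigel in N2 and B27 medium. The medium held bFGF, a fibroblast growth factor, together with CHIR99021, which blocks glycogen synthase kinase 3. The other library was made from C57BL/6 retina tissue, for which the labels give no age, and the labels name no transgene or deletion in either group. With 1 library per group there was no replicate spread to judge a difference by, and no p-value is given. Differences are described by size, and the errors given cover the counting of fragments alone.

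The respiratory chain sits in the inner mitochondrial membrane. Complexes I and II take electrons from NADH and succinate, complex III passes them to cytochrome c, complex IV reduces oxygen, and complex V uses the resulting proton gradient to make ATP. Most subunits are encoded in the nucleus, and a few subunits of complexes IV and V come in isoforms that differ between tissues such as liver, muscle, lung and testis. Photoreceptors of the adult retina consume much oxygen, and their inner segments are packed with mitochondria.

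Depth and library composition were checked first. The smallest FPKM steps put the depth at about 6.53e+06 fragments in the mNRPC library and 5.01e+06 in the retina library. All FPKM values summed to 616860 in mNRPCs and 432256 in retina, a ratio of 1.43, so that a gene taking the same share of both libraries is 0.51 higher in mNRPCs on the log2 scale. The 85 cytosolic ribosomal protein genes held 20.0% of the mNRPC library and 5.79% of the retina library. The 10 rod photoreceptor markers held 0.00373% and 6.08%, all 10 were at least 2-fold lower in mNRPCs, and all 7 progenitor and cycling markers were at least 2-fold higher, so the markers went the way of both labels. In bulk RNA, fewer cells of a type and less RNA per cell cannot be told apart.

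Most respiratory chain genes were transcribed at similar levels in both libraries. Of the 80 genes compared, 63 lay within 2-fold, 13 (16.2%) were at least 2-fold higher in mNRPCs and 4 (5.0%) were at least 2-fold lower. Over all 13780 genes compared, 24.5% were at least 2-fold higher and 30.0% at least 2-fold lower, so at this limit both shares of the respiratory chain genes lay below the background. At a limit of 1.5-fold, 37 of the 80 genes were higher and 7 lower, against 32.8% and 38.8% of all genes, so that the higher share then lay above the background. The median log2 ratio, taken as log2 of (mNRPC FPKM + 1)/(retina FPKM + 1), was 0.56 for the respiratory chain genes and -0.12 for all genes. The median level of the 84 genes was 180 FPKM in mNRPCs and 133 FPKM in retina.

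The scale of the libraries decided the sign of many of these ratios. After both libraries were brought to a common sum, the median log2 ratio of the respiratory chain genes was 0.05, with 2 genes at least 2-fold higher and 9 at least 2-fold lower. The median of all genes moved to -0.57, with 18.0% at least 2-fold higher and 39.1% at least 2-fold lower. The sign of the log2 ratio turned in 19 of the 80 genes. The distance between the respiratory chain genes and all genes was 0.68 with the values as deposited and 0.62 with the common sum. When the rod and ribosomal protein genes were left out and the rest was rescaled, 5 of the 80 genes were at least 2-fold higher and 7 at least 2-fold lower, against 19.1% and 36.5% of all remaining genes.

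Transcript length moved with this distance. The main transcripts of the respiratory chain genes had a median length of 714 bp, against 2795 bp for all genes compared. Among the 369 compared genes of at most 714 bp, 39 were respiratory chain genes with a median log2 ratio of 0.54 and 31 were ribosomal protein genes, while the other 299 had a median of 0.19. The 41 longer respiratory chain genes had a median of 0.61. With a running median over length subtracted from every gene, the median of the respiratory chain genes was 0.00 and lay 0.20 above that of all genes. In that setting 3 of the 80 genes were at least 2-fold higher and 6 at least 2-fold lower, against 22.3% and 31.0% of all genes. Whether length or library composition set the size of the distance was not tested.

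**Figure D1:**
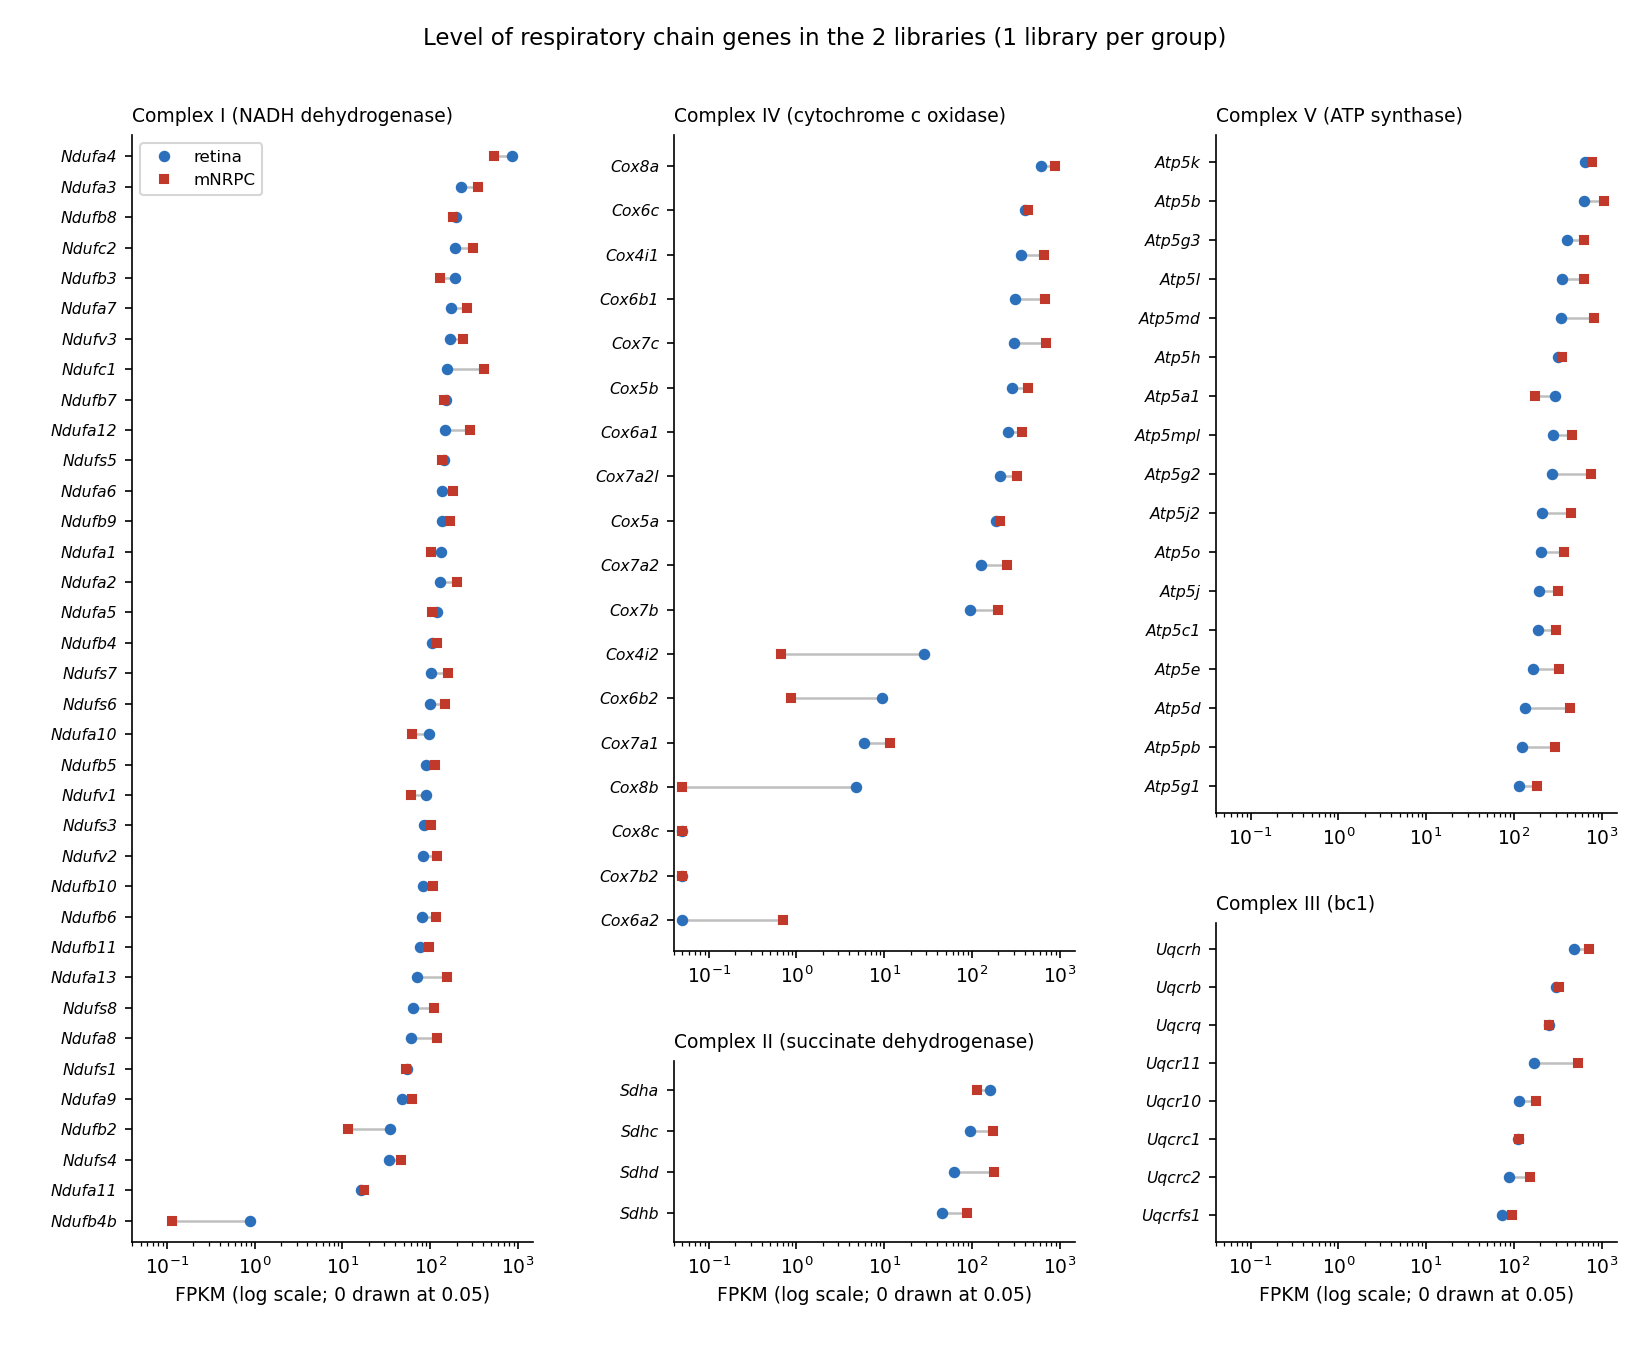
Level of the respiratory chain genes in FPKM on a log scale, with the retina library as blue circles and the mNRPC library as red squares, grouped by complex and ordered by retina level. The symbols of most genes lie close together, while Cox4i2, Cox6b2 and Cox8b of complex IV are far lower in mNRPCs.

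The order of levels among the genes was largely shared. Across the 80 genes, log2 levels of the libraries had a Pearson's r of 0.90 and a Spearman's rho of 0.89, against 0.51 and 0.50 across all 13780 genes. Within complex I these were 0.85 and 0.81, within complex IV 0.93 and 0.95, and within complex V lower at 0.72 and 0.73. These correlations are across genes, which are not independent replicates, and they are given as a description. Atp5b, the catalytic beta subunit of ATP synthase, had the highest level in mNRPCs at 1060 FPKM, with 627 FPKM in retina. Ndufa4 had the highest level in retina at 857 FPKM, with 530 FPKM in mNRPCs.

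By complex, the summed level was higher in mNRPCs throughout as deposited, and the excess differed in size from complex I to complex V. Complex I summed to 5652 FPKM in mNRPCs and 4743 FPKM in retina, a ratio of 1.19. The ratio was 1.52 for complex II, 1.49 for complex III and 1.62 for complex IV. With Ndufa4 counted in complex IV instead of complex I, it was 1.32 for complex I and 1.41 for complex IV. Complex V summed to 8366 FPKM and 4871 FPKM, a ratio of 1.72. The mean level of a complex V gene was thus 3.22 times that of a complex I gene in mNRPCs and 2.24 times in retina. This order of the libraries does not depend on their scale, because both complexes were read in the same library.

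Set against the whole library, complex I as grouped by symbol stood on the other side from the rest. Its genes held 0.916% of all FPKM in mNRPCs and 1.10% in retina. Complex V held 1.36% and 1.13%, and complex IV held 0.837% and 0.738%. Complexes II and III differed little, with 0.090% against 0.0846% and 0.386% against 0.370%. Together the 84 genes held 3.59% of the mNRPC library and 3.42% of the retina library. A single abundant gene carried much of the complex I value: Ndufa4, long listed as a complex I subunit and now assigned to complex IV. Without it complex I held 0.830% and 0.899%, and with it complex IV held 0.923% and 0.936%. Both shares were then lower in mNRPCs, so complex I no longer stood apart from complex IV.

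**Figure D2:**
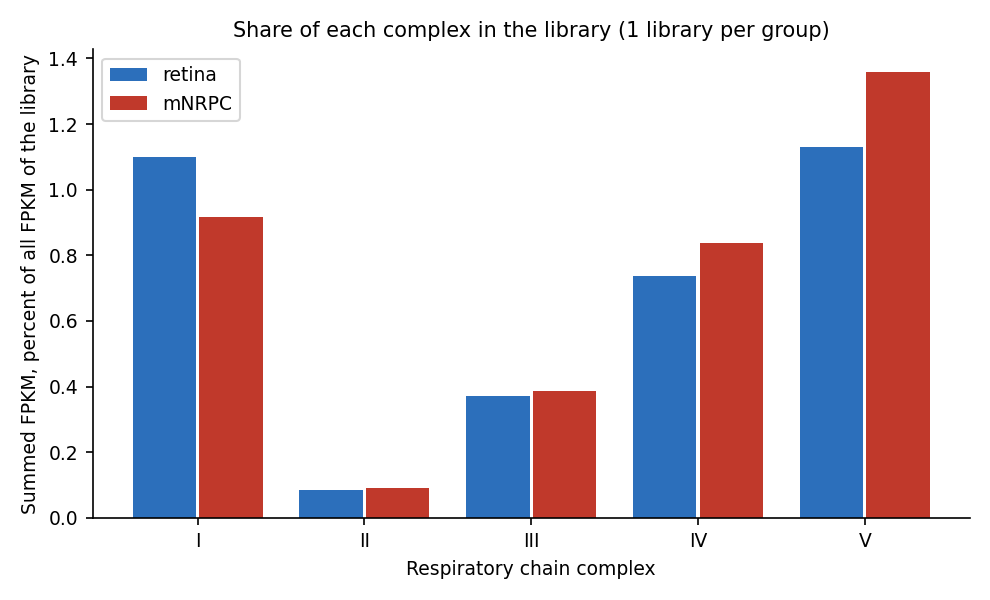
Summed FPKM of the genes of each complex as a percent of all FPKM of the library, with retina in blue and mNRPCs in red, 1 library each and no error bars. Complex I was higher in retina (1.10% against 0.916%), and complex V was higher in mNRPCs (1.36% against 1.13%). Ndufa4 is counted in complex I by its symbol. With it moved to complex IV, that complex was also slightly higher in retina (0.936% against 0.923%).

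Most genes of complex I lay within 2-fold. Of its 36 compared genes, 32 lay within 2-fold, 3 (8.33%) were higher and 1 (2.78%) was lower, beside 24.5% and 30.0% of all genes, and the median log2 ratio was 0.36. With the common sum, where the shares of all genes were 18.0% and 39.1%, none was at least 2-fold higher and 5 were at least 2-fold lower, namely Ndufb2, Ndufa4, Ndufa10, Ndufb3 and Ndufv1. None of the 16 genes grouped here as the matrix arm, which binds NADH and carries the flavin and most iron-sulphur clusters, differed by 2-fold as deposited, and their median was 0.48. The 19 genes of the membrane arm spread further, from -1.48 to 1.42, with a median of 0.32. These arms were grouped after the values had been seen.

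The 7 conserved core subunits of complex I encoded in the nucleus showed no common direction. Ndufs1, the large iron-sulphur subunit of the electron input module, had 52.4 FPKM in mNRPCs and 54.5 FPKM in retina. Ndufv1, the flavin-bearing subunit that binds NADH, had 61.1 FPKM in mNRPCs and 89.1 FPKM in retina, a log2 ratio of -0.54. Ndufv2, its iron-sulphur partner, had 120 FPKM in mNRPCs and 81.9 FPKM in retina, a log2 ratio of 0.55. Ndufv1 and Ndufv2 thus went in opposite directions within one module. Ndufs3, a subunit of the module that joins the electron input to the membrane arm, had 102 FPKM and 84.7 FPKM, a log2 ratio of 0.26 that was negative with the common sum. Ndufs7 and Ndufs8, which carry the last iron-sulphur clusters, had log2 ratios of 0.65 and 0.81. The range of the 7 core subunits, from -0.54 to 0.81, did not reach 2-fold at either end as deposited, while Ndufv1 passed it with the common sum at -1.04.

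Among the accessory subunits of complex I that were higher in mNRPCs, the ratio was largest for Ndufc1, a small membrane subunit. It had 413 FPKM in mNRPCs and 154 FPKM in retina, a log2 ratio of 1.42 with an estimated counting error of 0.105. Ndufa13, also known as Grim19, had 154 FPKM in mNRPCs and 69.9 FPKM in retina, a log2 ratio of 1.13. Ndufa8 had 121 FPKM and 60.0 FPKM, a log2 ratio of 1.0 that sat at the threshold. None of the 3 reached 2-fold with the common sum, where the highest was Ndufc1 at 0.91.

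Lower levels in mNRPCs were seen for a few accessory subunits. Ndufb2 was the 1 gene of complex I that was at least 2-fold lower, with 11.7 FPKM in mNRPCs and 34.5 FPKM in retina, a log2 ratio of -1.48 that stayed past 2-fold with the common sum at -1.96. Ndufa4 had 530 FPKM in mNRPCs and 857 FPKM in retina, a log2 ratio of -0.69. Ndufa10 had 61.3 FPKM and 97.7 FPKM, a log2 ratio of -0.66. Ndufb4b, which is known in this table by a predicted transcript only, had 0.113 FPKM in mNRPCs and 0.874 FPKM in retina and was not compared.

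Complex II, which is also the succinate dehydrogenase of the citric acid cycle, was split by subunit. Sdha, the flavin-bearing catalytic subunit, had 115 FPKM in mNRPCs and 162 FPKM in retina, a log2 ratio of -0.49. Sdhb, the iron-sulphur subunit, had 87.1 FPKM in mNRPCs and 45.1 FPKM in retina, a log2 ratio of 0.93. Sdhc, a membrane anchor, had 173 FPKM and 95.7 FPKM, and Sdhd, the other anchor, had 180 FPKM and 62.7 FPKM. Sdhd was the gene of complex II past 2-fold, with a log2 ratio of 1.51, and with the common sum it fell just short of that limit. Sdha thus had the highest level of the 4 in retina, and in mNRPCs both anchors lay above it.

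Complex III had 8 genes, all with log2 ratios above 0 as deposited, where 46.9% of all genes were above 0, and 4 of 8 above 0 with the common sum, where 35.7% were. Uqcr11, the smallest subunit of the complex, had 537 FPKM in mNRPCs and 171 FPKM in retina. Its log2 ratio was 1.65, and it stayed past 2-fold with the common sum at 1.14. The core protein genes differed from each other, since Uqcrc1 had 114 FPKM in mNRPCs and 111 FPKM in retina while Uqcrc2 had 153 FPKM and 87.6 FPKM. Uqcrfs1, the Rieske iron-sulphur protein, had 96.2 FPKM in mNRPCs and 73.4 FPKM in retina. Uqcrq and Uqcrb, which are small accessory subunits, had log2 ratios of 0.02 and 0.14. Uqcrh, the hinge protein near cytochrome c1, had the highest level of the complex in both libraries, at 715 FPKM and 490 FPKM.

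**Figure D3:**
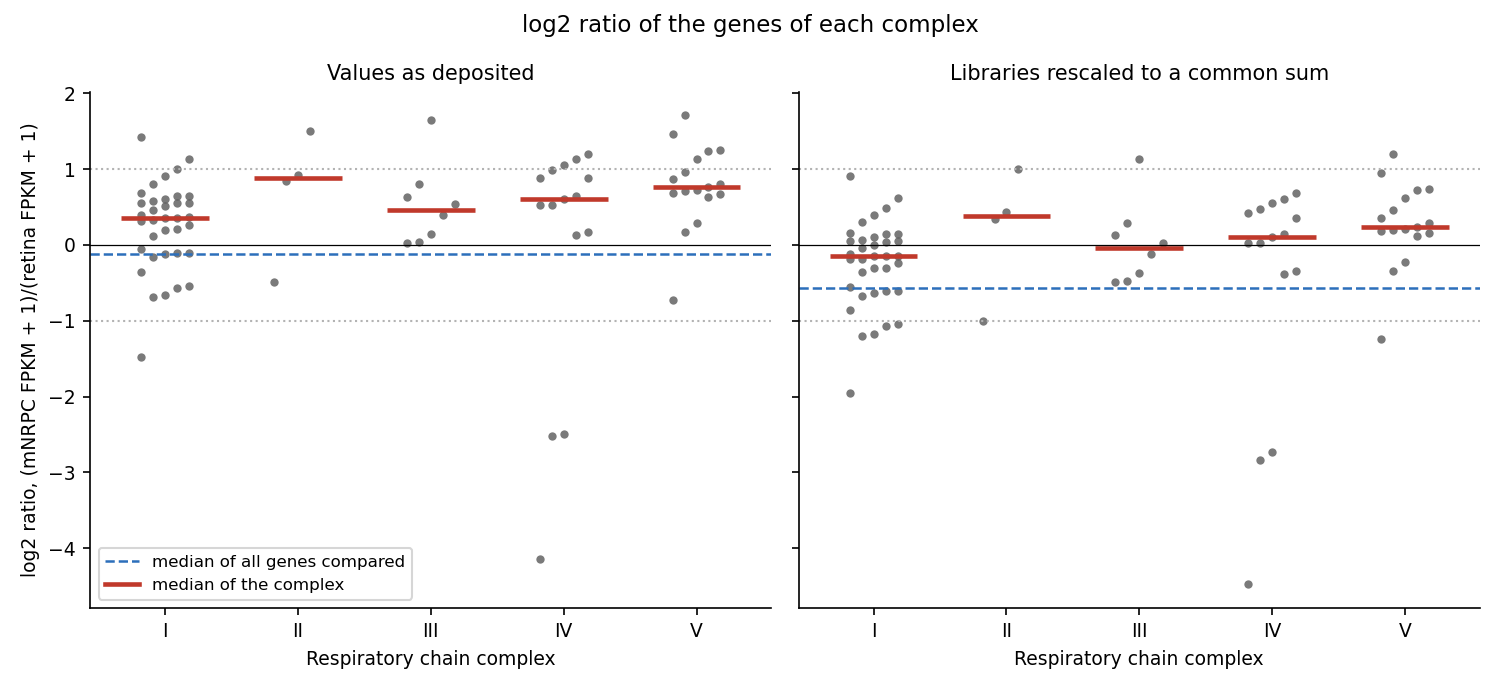
log2 ratio of (mNRPC FPKM + 1) to (retina FPKM + 1) for each compared gene by complex (grey points), with the median of the complex (red line), the median of all genes compared (dashed blue line) and 2-fold limits (dotted lines), as deposited on the left and with both libraries rescaled to a common sum on the right. The medians of all 5 complexes lie above that of all genes in both panels, and complex I has the lowest of the 5 medians (0.36 and -0.15).

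As deposited, complex V had the highest share of genes at least 2-fold higher in mNRPCs. Of its 17 genes, 5 passed that limit, none was at least 2-fold lower, and the median log2 ratio was 0.76. The share of 29.4% was near the 24.5% of all genes, of which 30.0% were at least 2-fold lower. With the common sum, 1 gene was past 2-fold in each direction, beside 18.0% higher and 39.1% lower among all genes, and the median was 0.24. In the F1 head, the alpha and beta subunits that alternate around its hexamer were opposite in direction. Atp5a1, the alpha subunit, had 176 FPKM in mNRPCs and 293 FPKM in retina, a log2 ratio of -0.73. Atp5b had a log2 ratio of 0.76 from the levels above. Atp5a1 ranked last of the 17 genes in mNRPCs and 7 of 17 in retina, and it was the complex V gene past 2-fold lower with the common sum, at -1.24.

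The central stalk, which turns inside the head, differed by subunit. Atp5d, the delta subunit at the foot of the stalk, had 441 FPKM in mNRPCs and 134 FPKM in retina. Its log2 ratio of 1.71, with an estimated counting error of 0.064, was the highest of all 80 genes, and with the common sum it was 1.2. Atp5c1, the gamma subunit that forms the shaft, had 303 FPKM and 187 FPKM, a log2 ratio of 0.69. Atp5pb, the b subunit of the outer stalk, had 298 FPKM in mNRPCs and 124 FPKM in retina, a log2 ratio of 1.25. Atp5h, the d subunit of the same stalk, had 355 FPKM and 315 FPKM, a log2 ratio of 0.17.

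Small membrane subunits of complex V that join ATP synthase dimers or stabilise them also differed in size of ratio. Atp5md, formerly Usmg5, had 821 FPKM in mNRPCs and 346 FPKM in retina, a log2 ratio of 1.24. Atp5j2, the f subunit, had 454 FPKM and 207 FPKM, a log2 ratio of 1.13. Atp5k, the e subunit, had 782 FPKM and 640 FPKM, a log2 ratio of 0.29. Atp5k had the highest level of complex V in retina, and Atp5b in mNRPCs.

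The c ring of ATP synthase differed between the libraries in paralog use. Its subunit is made from Atp5g1, Atp5g2 and Atp5g3, which differ in the leader peptide that is cut off after import and give the same mature protein. Atp5g2 had 757 FPKM in mNRPCs and 275 FPKM in retina, a log2 ratio of 1.46. Atp5g3 had 631 FPKM in mNRPCs and 406 FPKM in retina, a log2 ratio of 0.63. Atp5g1 had 185 FPKM in mNRPCs and 116 FPKM in retina, a log2 ratio of 0.67. Atp5g2 made up 48.1% of the summed level in mNRPCs and 34.5% in retina, while Atp5g3 made up 40.1% and 51.0% and Atp5g1 11.8% and 14.5%. The most abundant paralog was thus Atp5g2 in mNRPCs and Atp5g3 in retina, an order that does not depend on library scale. It was the same when a single transcript of each gene was read, the same transcript in both libraries.

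The promoters of these 3 paralogs are shown because their transcripts encode one mature protein but were used in different proportions. Each line gives the 250 bases before the RefSeq start in the GRCm38.p6 assembly, 5′ to 3′ on the strand of the gene. Capitals mark the palindrome bound by nuclear respiratory factor 1 (GCGCA, any base, then GCGC) and CAAGGTCA or its reverse complement, the recognition sequence of oestrogen-related receptors.

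Atp5g1 (chr11:96075632-96075881, minus strand): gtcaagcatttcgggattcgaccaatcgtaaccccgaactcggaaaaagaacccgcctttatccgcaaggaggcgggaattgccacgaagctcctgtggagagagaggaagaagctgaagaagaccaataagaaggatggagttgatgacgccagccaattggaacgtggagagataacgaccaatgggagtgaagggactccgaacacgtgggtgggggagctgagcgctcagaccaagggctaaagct

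Atp5g2 (chr15:102671048-102671297, minus strand): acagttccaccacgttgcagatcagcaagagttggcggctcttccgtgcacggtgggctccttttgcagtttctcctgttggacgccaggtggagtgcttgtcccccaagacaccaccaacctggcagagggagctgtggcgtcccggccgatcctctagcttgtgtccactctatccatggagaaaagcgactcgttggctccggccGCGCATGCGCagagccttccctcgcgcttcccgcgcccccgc

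Atp5g3 (chr2:73911327-73911576, minus strand): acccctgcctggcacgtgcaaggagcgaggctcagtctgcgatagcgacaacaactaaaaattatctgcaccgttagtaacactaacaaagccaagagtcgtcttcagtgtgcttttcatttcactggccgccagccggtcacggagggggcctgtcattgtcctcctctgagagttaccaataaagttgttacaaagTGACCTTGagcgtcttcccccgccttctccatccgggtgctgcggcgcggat

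The Atp5g2 window held the nuclear respiratory factor 1 palindrome from 42 bases before the start. The Atp5g3 window held the receptor sequence from 52 bases before the start, and the Atp5g1 window held neither. Past the start, in bases not printed, Atp5g3 also held the palindrome. A match is a description of letters and is no evidence of binding.

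Complex IV had the widest spread, from -4.14 to 1.2 in log2 ratio over its 15 compared genes. The spread came from isoforms, since the genes of the common form all lay above 0. Cox7c had 693 FPKM in mNRPCs and 301 FPKM in retina, a log2 ratio of 1.2. Cox6b1, which joins monomers on the side of the intermembrane space, had 680 FPKM and 311 FPKM, a log2 ratio of 1.13. Cox7b had 200 FPKM and 95.3 FPKM, a log2 ratio of 1.06. These 3 were the genes of complex IV at least 2-fold higher, and all fell short of 2-fold with the common sum, at 0.69, 0.61 and 0.55. The genes with the lowest ratios among the common forms were Cox6c at 0.13 and Cox5a at 0.17, both negative with the common sum.

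The 3 genes of complex IV that were at least 2-fold lower in mNRPCs were the isoforms Cox4i2, Cox6b2 and Cox8b. Complex IV thus had 20.0% of its compared genes higher and 20.0% lower, both below the 24.5% and 30.0% of all genes. Each of these isoforms, Cox4i2, Cox6b2 and Cox8b, stayed past 2-fold under every scaling tried. Their levels were low in both libraries beside the common forms, and the mNRPC values rest on about 3 fragments or none.

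**Figure D4:**
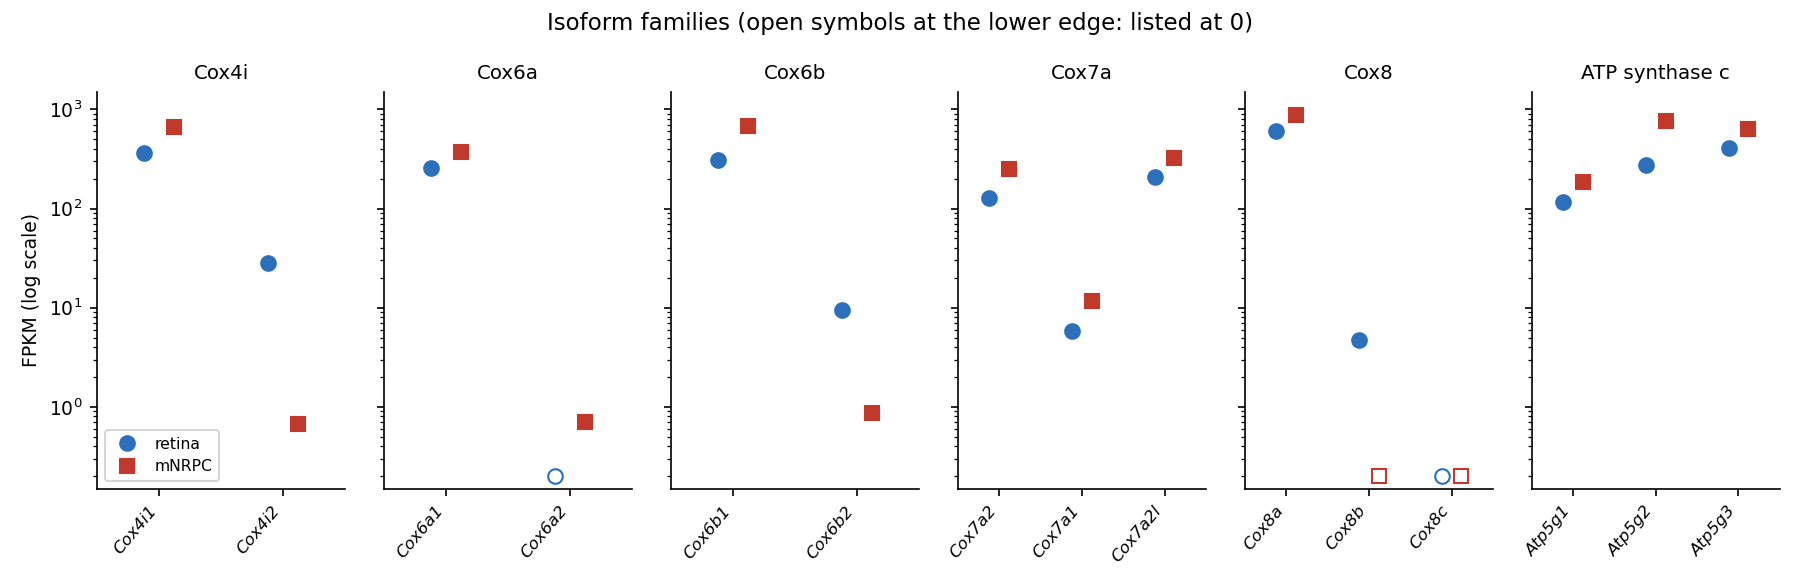
FPKM of the members of 5 cytochrome c oxidase isoform families and of the ATP synthase c subunit on a log scale, retina as blue circles and mNRPCs as red squares, with open symbols at the lower edge for genes listed at 0. Cox4i2, Cox6b2 and Cox8b were lower in mNRPCs, while their common partners Cox4i1, Cox6b1 and Cox8a were higher as deposited. With the common sum the log2 ratio of Cox8a was 0.02. Atp5g2 and Atp5g3 stand in opposite order.

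Cox4i2 is the isoform of subunit IV known from lung and oxygen-sensing smooth muscle, where it takes the place of Cox4i1. Cox4i1 had 665 FPKM in mNRPCs and 362 FPKM in retina, a log2 ratio of 0.88. Cox4i2 had 0.674 FPKM in mNRPCs, or about 3 fragments, and 28.5 FPKM in retina, or about 104 fragments. The level in retina was 42.2-fold that in mNRPCs, with an exact 95% counting interval from 15.0-fold to 223-fold. Cox4i2 made up 7.29% of the subunit IV level in retina and 0.101% in mNRPCs. Exact Clopper-Pearson intervals of its share were taken on estimated fragments, without adjustment for length. They ran from 5.88% to 8.59% in retina and from 0.0191% to 0.270% in mNRPCs. The share of Cox4i2 is a ratio within each library, and the intervals do not overlap.

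Marker lists of the cells known for Cox4i2 moved with it only in part. The 8 markers of pericytes and smooth muscle summed to 14.9 FPKM in mNRPCs and 15.9 FPKM in retina. Of these, Rgs5, Kcnj8, Abcc9 and Myh11 were listed at 0 in mNRPCs, with Rgs5 at 8.16 FPKM in retina. Kcnj8, Abcc9 and Myh11 had 0.142, 0.905 and 0.495 FPKM in retina and were too low to be compared. So were Cspg4, at 0.0151 FPKM in mNRPCs and 0.227 FPKM in retina, and Notch3, at 0.252 FPKM and 0.386 FPKM. Pdgfrb had 4.49 FPKM in mNRPCs and 1.24 FPKM in retina, and Acta2 had 10.1 FPKM and 4.39 FPKM, so these markers went the other way. The 6 endothelial markers were at 0 to 0.0862 FPKM in mNRPCs and 0.54 to 29.5 FPKM in retina, where Kdr at 29.5 FPKM, mostly from a predicted transcript, and Cldn5 at 6.04 FPKM stood above the other 4. The part of these cells in the Cox4i2 level was not tested.

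Cox6b2 is the testis isoform of subunit VIb. It had 0.860 FPKM in mNRPCs, or about 3 fragments, and 9.48 FPKM in retina, or about 25 fragments, an 11-fold higher level in retina with an exact 95% counting interval from 3.31-fold to 56.2-fold. It made up 2.96% of the subunit VIb level in retina and 0.126% in mNRPCs. These shares were 2.05% and 0.0325% when a single row of each gene, the same in both libraries, was read. That row of Cox6b2 had 6.53 FPKM in retina and 0.221 FPKM in mNRPCs, where another of its rows was higher at 0.448 FPKM. The common form Cox6b1 was higher in mNRPCs, so that the isoforms of this subunit went in opposite directions, as those of subunit IV did.

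Of the heart and muscle isoforms, Cox8b was lower in mNRPCs, Cox7a1 lay within 2-fold, and Cox6a2 was too low to show a direction. Cox8b was listed at 0 in mNRPCs and had 4.73 FPKM in retina, or about 9 fragments and 0.775% of the subunit VIII level. The counting interval of its ratio of retina to mNRPCs began at 2.57. Cox7a1 had 11.6 FPKM in mNRPCs, or about 30 fragments, and 5.84 FPKM in retina, or about 11 fragments. Its log2 ratio was 0.88 as deposited and 0.42 with the common sum. Cox6a2 had 0.70 FPKM in mNRPCs, or about 3 fragments, was listed at 0 in retina and was not compared. The counting interval of its ratio of mNRPCs to retina began at 0.317 and had no upper end. As deposited, the ratio of Cox7a1 in mNRPCs to that in retina was 1.98, with a counting interval from 1.02 to 4.63. This was close to the ratio of 1.99 for its common partner Cox7a2. The share of Cox7a1 in the subunit VIIa level was 1.97% in mNRPCs and 1.72% in retina. The common forms Cox6a1 and Cox8a both had log2 ratios of 0.53 as deposited and 0.02 with the common sum. Of the 10 striated muscle markers, 8 were listed at 0 in mNRPCs, and none was above 2.89 FPKM in retina.

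The testis isoforms Cox7b2 and Cox8c were listed at 0 in both libraries. Cox7a2l, a relative of Cox7a2, had 323 FPKM in mNRPCs and 206 FPKM in retina, a log2 ratio of 0.65. Low values in this table, zeros among them, may be failed estimates: Rps19, a gene that every cell uses, had 10.2 FPKM in mNRPCs and 0.0586 FPKM in retina. This also bears on the low mNRPC values of Cox4i2 and Cox6b2.

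Promoters of common and tissue isoforms are printed to show how they differ in letters. Cox6a1 and Cox8a are common forms with high levels in both libraries, and Cox8b is the muscle isoform of Cox8a. Cox6a1 does not stand for the common forms in its letters, since it was the 1 window of 13 for complex IV with the nuclear respiratory factor 1 palindrome (7.69%, against 9.16% of the windows of all genes compared). The lines again give 250 bases before the start in GRCm38.p6. Capitals mark the nuclear respiratory factor 1 palindrome and CCGGAAG or its reverse complement, a site of ETS family factors such as GABP.

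Cox6a1 (chr5:115348959-115349208, minus strand): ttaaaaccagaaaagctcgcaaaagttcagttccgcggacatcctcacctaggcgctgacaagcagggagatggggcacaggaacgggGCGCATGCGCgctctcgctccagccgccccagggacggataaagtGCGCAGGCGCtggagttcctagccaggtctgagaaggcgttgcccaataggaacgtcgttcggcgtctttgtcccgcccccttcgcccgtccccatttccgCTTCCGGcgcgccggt

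Cox8a (chr19:7217617-7217866, minus strand): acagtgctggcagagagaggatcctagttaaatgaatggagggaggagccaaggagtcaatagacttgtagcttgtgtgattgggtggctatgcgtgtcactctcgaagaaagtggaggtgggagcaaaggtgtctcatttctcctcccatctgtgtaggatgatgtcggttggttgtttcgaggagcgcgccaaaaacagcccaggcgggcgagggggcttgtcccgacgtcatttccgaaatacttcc

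Cox8b (chr7:140900447-140900696, minus strand): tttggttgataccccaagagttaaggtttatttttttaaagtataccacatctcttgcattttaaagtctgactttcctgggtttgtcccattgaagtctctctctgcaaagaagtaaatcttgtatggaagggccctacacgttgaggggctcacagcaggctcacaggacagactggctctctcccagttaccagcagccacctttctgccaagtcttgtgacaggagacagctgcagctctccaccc

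The Cox6a1 window held the palindrome from 162 and 117 bases before the start and the ETS site from 16 bases before it. It had 26 CpG dinucleotides, against 11 for Cox8a and 1 for Cox8b. A Cox8a ETS match that starts 5 bases before the start runs past it and is therefore left in lower case, and another lies beyond the start.

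Over the group, the promoter windows read here covered 69 of the 84 genes, with 74 windows of 300 bases that run from before the start to shortly after it. Both strands were searched. The nuclear respiratory factor 1 palindrome was in 18 of 74 windows (24.3%), against 9.16% of the windows of all genes compared and 4.6% of all windows in the table. CCGGAAG was in 17 windows (23.0%), against 16.2% and 8.86%. AAGATGGC, the core letters of the YY1 motif, was in 10 windows (13.5%), against 4.06% and 2.75%.

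The other motifs went both ways against the genes compared. GGGCGG, the GC box bound by Sp1, was in 29 windows (39.2%), against 60.9% of those of all genes compared and 35.7% of all windows. TATAAA was in 9 windows (12.2%), against 7.52% and 13.6%. CAAGGTCA was in 4 windows (5.41%), against 1.15% and 1.56%. The median number of CpG dinucleotides was 19 in windows of the respiratory chain genes, 20 in those of genes compared and 7 in all windows. These shares were not tested, and matches of CCGGAAG and AAGATGGC can share letters where one runs into the other.

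Genes that assemble the complexes did not share the shift of the subunits. Of 46 assembly factors, 45 were compared, with 4 at least 2-fold higher, 7 at least 2-fold lower and 34 within, beside 24.5% higher and 30.0% lower among all genes. With the common sum 2 were higher and 14 lower, beside 18.0% and 39.1%. Their median log2 ratio was -0.12, equal to that of all genes and below the 0.56 of the subunits. Their levels were also lower, with a median of 14.0 FPKM in mNRPCs and 15.6 FPKM in retina. With the common sum the medians were -0.61 for the factors and 0.05 for the subunits, and with the length correction they were -0.48 and 0.00.

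Factors of complex I spread in both directions. Ndufaf2, which acts late in complex I assembly, had 38.9 FPKM in mNRPCs and 9.89 FPKM in retina, a log2 ratio of 1.87. Nubpl, which delivers iron-sulphur clusters to complex I, had 19.2 FPKM and 6.26 FPKM, a log2 ratio of 1.48. Ecsit, a factor of the membrane arm, had 6.38 FPKM in mNRPCs and 19.8 FPKM in retina, a log2 ratio of -1.50. Ndufaf4 had 5.18 FPKM and 12.4 FPKM, a log2 ratio of -1.12. Ndufaf5 is counted among the higher genes at 7.32 FPKM and 2.58 FPKM, but its log2 ratio turned from 1.22 to -1.39 when predicted transcripts were left out.

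Factors of the other complexes were mostly lower or within 2-fold. Sdhaf1, which helps insert the iron-sulphur clusters of Sdhb, had 11.3 FPKM in mNRPCs and 41.9 FPKM in retina, a log2 ratio of -1.80, while Sdhb itself was higher in mNRPCs. Of 5 compared factors of complex III, 3 were at least 2-fold lower, beside 30.0% of all genes, with Ttc19 at 7.43 FPKM and 18.5 FPKM, Lyrm7 at 2.06 FPKM and 5.44 FPKM and Uqcc3 at 43.6 FPKM and 90.8 FPKM. Lyrm7 fell short of 2-fold, at -0.70, when predicted transcripts were left out or the highest row alone was read, and Uqcc3 did so under TMM scaling at -0.97. Pet117, a factor of complex IV, was listed at 0 in mNRPCs and had 5.03 FPKM in retina. Tmem70, a factor of ATP synthase, had 40.3 FPKM and 16.3 FPKM, a log2 ratio of 1.25. The other 18 factors of complex IV lay within 2-fold as deposited. With the common sum 6 of the 19 were at least 2-fold lower, beside 39.1% of all genes. Surf1, a factor of early complex IV assembly, had a log2 ratio of -0.56 that turned to 0.73 with curated rows and 3.03 with the highest row alone.

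**Figure D5:**
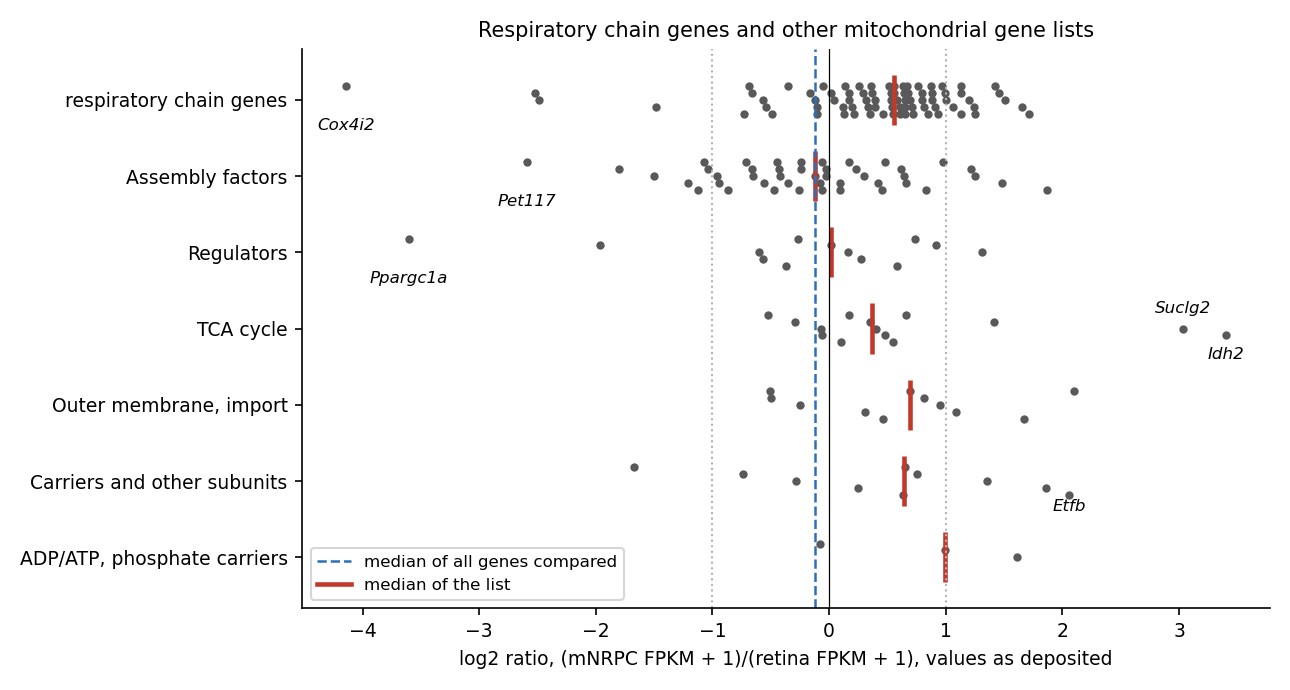
log2 ratio of (mNRPC FPKM + 1) to (retina FPKM + 1) of each compared gene (grey points) for the respiratory chain genes and 6 lists of other mitochondrial genes, with list medians (red), the median of all genes compared (dashed blue) and 2-fold limits (dotted). The list of electron carriers also holds Cox7a2l, a respiratory chain gene. The assembly factors have the same median as all genes (-0.12), and the median of the respiratory chain genes is 0.56.

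Electron carriers and subunits that the symbol rule leaves out were read as well, in a list that also held Cox7a2l, which the rule takes in. Cycs, the somatic cytochrome c, had 55.2 FPKM in mNRPCs and 35.2 FPKM in retina, and Cyc1, the cytochrome c1 of complex III, had 111 FPKM and 92.9 FPKM. Cyct, the testis cytochrome c, was listed at 0 in both. Ndufab1, the acyl carrier protein of complex I, had 8.01 FPKM and 4.36 FPKM. None of Cycs, Cyc1 and Ndufab1 differed by 2-fold.

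The electron transfer flavoprotein route, which feeds electrons from fatty acid oxidation into ubiquinone, was at least 2-fold higher in mNRPCs in all 3 of its genes. With Cox7a2l counted, they were the 3 higher genes among 10 compared on this list (30.0%, against 24.5% of all genes). Of the 10, 1 was lower, against 30.0% of all genes. Etfa had 109 FPKM in mNRPCs and 42.0 FPKM in retina, a log2 ratio of 1.35 that was 0.85 with the common sum. Etfb had 115 FPKM and 26.9 FPKM, a log2 ratio of 2.06. Etfdh, the dehydrogenase in the inner membrane, had 38.8 FPKM and 9.94 FPKM, a log2 ratio of 1.86. Ndufa4l2, a relative of Ndufa4 induced by low oxygen, was listed at 0 in mNRPCs and had 2.18 FPKM in retina. Higd1a and Higd2a, small proteins that bind the oxidase, had log2 ratios of -0.74 and -0.28.

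Regulators of mitochondrial genes went in both directions, with 1 of 13 (7.69%) at least 2-fold higher and 2 (15.4%) at least 2-fold lower, beside 24.5% and 30.0% of all genes. Ppargc1a, a coactivator that drives mitochondrial gene expression in oxidative tissues, was listed at 0 in mNRPCs and had 11.1 FPKM in retina. Its relative Ppargc1b had 1.51 FPKM in mNRPCs and 8.81 FPKM in retina, a log2 ratio of -1.96. Tfam, which packages mitochondrial DNA and acts in its transcription, had 18.3 FPKM in mNRPCs and 6.82 FPKM in retina, a log2 ratio of 1.31. The other 10 of 13 regulators lay within 2-fold as deposited. Among them were Nrf1 with 12.2 FPKM in mNRPCs and 16.2 FPKM in retina and Gabpa with 17.8 FPKM and 15.8 FPKM. Esrra, at 0.92 as deposited, passed 2-fold at 1.83 with curated rows or with the highest row alone. Gabpb1, at 0.02 as deposited, passed it at -1.06 with the highest row alone. Pprc1, a further coactivator of the same family as Ppargc1a and Ppargc1b, had 9.74 FPKM in mNRPCs and 5.43 FPKM in retina, a log2 ratio of 0.74. With the common sum, none of the 13 was at least 2-fold higher and 4 were at least 2-fold lower, beside 18.0% and 39.1% of all genes.

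Citric acid cycle genes had a median log2 ratio of 0.37, with 3 of 14 (21.4%) at least 2-fold higher, against 24.5% of all genes. None was at least 2-fold lower, against 30.0% of all genes. Idh2, the mitochondrial NADP-dependent isocitrate dehydrogenase, had 156 FPKM in mNRPCs and 13.9 FPKM in retina, a log2 ratio of 3.40. The NAD-dependent enzyme genes Idh3a, Idh3b and Idh3g had log2 ratios of -0.06, 0.17 and 0.10. Suclg2, the GTP-forming subunit of succinyl-CoA synthetase, had 12 FPKM in mNRPCs and 0.586 FPKM in retina, while Sucla2, its ATP-forming counterpart, had 56.8 FPKM and 59.6 FPKM. Cs, citrate synthase, had 159 FPKM and 59.4 FPKM, a log2 ratio of 1.41 that was 0.90 with the common sum.

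Carriers and import genes completed the pathway. The adenine nucleotide carriers, which exchange ATP for ADP across the inner membrane, stood in opposite order. Slc25a5 had 783 FPKM in mNRPCs and 257 FPKM in retina, and Slc25a4 had 486 FPKM and 513 FPKM. The ratio of Slc25a5 to Slc25a4 was 1.61 in mNRPCs and 0.50 in retina. Slc25a3, the phosphate carrier, had 387 FPKM and 194 FPKM, a log2 ratio of 0.99. Of 11 outer membrane and import genes 3 (27.3%) were at least 2-fold higher, near the 24.5% of all genes, and none lower, against 30.0% of all genes. The higher genes were the chaperones Hspd1 at 196 FPKM and 45.1 FPKM and Hspa9 at 236 FPKM and 73.7 FPKM, and Tomm40, the import pore, at 55.3 FPKM and 25.4 FPKM. Vdac1, the pore of the outer membrane, had 198 FPKM in mNRPCs and 283 FPKM in retina. With the common sum 2 of the 11 were higher and 1 was lower, beside 18.0% and 39.1% of all genes, since Tomm40 was then at 0.59 and Vdac1 at -1.02.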

How the data were processed

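RNA sequencing values of 2 libraries were used, 1 from mNRPCs at passage 24 and 1 from retina tissue, grouped by the labels. The deposited values are FPKM for each RefSeq transcript, calculated by the authors with eXpress after alignment with Bowtie 2, according to the study's methods. The submitters' processing notes name TopHat2 2.0.10 and the build GRCm38.p3 instead, and the sequencer is also given differently in the series text and the methods, so the pipeline behind the table is not settled. Transcripts that share reads are split by estimation, and genes with near-identical copies, such as those with many pseudogenes, are less certain.

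The table had 106754 rows. Accessions without version were matched to RefSeq names of GRCm38.p6 and then GENCODE M21, which named 74280 rows (69.6%) holding 93.2% of the FPKM in mNRPCs and 89.9% in retina. Rows were summed per symbol. The rule found 84 genes in 116 rows. Of 102 symbols that RefSeq holds for the rule, 18 had no row, 16 of them pseudogenes. Values under 1e-06 FPKM were read as 0. Every column of values belonged to a sample.

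Genes with at least 1 FPKM in a library were compared by log2((mNRPC FPKM + 1)/(retina FPKM + 1)), a scale on which low genes look closer than they are. A gene was called at 2-fold. No test was possible with 1 library per group. Depth was estimated from the lowest FPKM times length, over 4024 and 4532 rows of at least 1500 bp, and fragments of a gene from its FPKM and its GENCODE transcript length, an upper estimate for short transcripts. Intervals are exact binomial ones at 95% on estimated fragments and cover counting error only. Alternatives were other pseudocounts, filters, scalings (common sum, TMM and upper quartile), row choices, a length correction and another fold limit. The highest row was a single row per gene, read in both libraries, so it was not always the highest in each. Leaving out the rod and ribosomal protein genes was added after the data had been seen. Genes named were, per complex, the 3 highest and 3 lowest log2 ratios, all isoform family members, the core subunits, all called members of at least 5 FPKM, and up to 3 called genes a direction of each pathway list. Others named were chosen after their values were seen. The members and lists were chosen with earlier results of these data known. The values of 1 compared gene are left out of the text and figure of levels, though the counts, sums and medians include it. The code was tested on simulated data. Python 3.11.15, pandas 2.3.3, numpy 2.4.6, scipy 1.17.1 and matplotlib 3.10.9 were used.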

Additional observations from a re-analysis of the deposited data

How the results depend on the processing

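No paired analysis was possible because the groups consisted of a single library each, and none could be left out. Of 778 values for 78 of the named genes under the alternatives, 649 were of 65 genes with an estimated 95% counting interval, and of these 480 stayed within it and 169 moved beyond it. Of 129 values of 13 genes with no such interval, 78 moved by less than 0.1, 50 by more and 1 called value reversed, the log2 ratio of Ndufaf5, which was -1.39 with curated rows only. This tally leaves out some genes named in the text, among them Surf1. Its log2 ratio turned from -0.56 to 0.73 with curated rows and 3.03 with the highest row alone. The counts and medians of the respiratory chain genes kept close to the values given under a pseudocount of 0.1, TMM, upper quartile scaling, curated rows and highest rows. With a common sum, 2 respiratory chain genes were higher and 9 lower, their median log2 ratio was 0.05, that of assembly factors -0.61 and that of all genes -0.57. The log2 ratio of summed FPKM was then -0.26 for complex I, which reversed it, 0.09 for complex II, 0.06 for complex III, 0.18 for complex IV and 0.27 for complex V. Without rod and ribosomal protein genes, 5 were higher and 7 lower, the medians were 0.19, -0.48 and -0.46 in the same order, and the complex ratios were -0.12 (reversed), 0.23, 0.20, 0.32 and 0.41. With the length correction, 3 were higher and 6 lower, the medians of respiratory chain genes and assembly factors were 0.00 and -0.48, and the distance to all genes was 0.20. At 1.5-fold, 37 were higher, 7 lower and 36 within, against 32.8% higher and 38.8% lower of all genes. The median of all genes was 0.00 without a filter, 0.04 (reversed) at a minimum of 5 FPKM and -0.01 with curated rows only, with distances of 0.55, 0.52 and 0.57. With a single row of each gene, the same in both libraries, shares of Atp5g1, Atp5g2 and Atp5g3 were 10.8%, 57% and 32.2% in mNRPCs. In retina they were 8.62%, 42.1% and 49.3%. The Atp5g1 row read had 56.2 FPKM in retina, where its other row was higher at 59.6 FPKM. The cause was not tested for any of these. Depth limits the low isoforms: Cox4i2, Cox6b2 and Cox6a2 rest on about 3 fragments in mNRPCs, and Cox8b on none there and 9 in retina.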
